A study of Mus musculus with 9 samples.

Results

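The genes described here are the mouse genes for the proteins of the cytosolic ribosome, the particle that makes protein in the cytoplasm. A gene was taken when a probe set carried its symbol alone and that symbol was a standard name of a large subunit protein (Rpl, Rplp) or a small subunit protein (Rps, Rpsa). The rule gave 42 genes, 22 of the large and 20 of the small subunit, among 18193 genes measured. The mouse gene table holds 76 protein-coding genes with such names. Of the other 34, a group of 27 lies only on probe sets that also name further genes, and 7 were not analysed here. Each gene stands for its brightest probe set. Signals of different probe sets were not compared as amounts of RNA.

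What was measured is the RNA bound to Argonaute (AGO), the protein that holds microRNAs and the transcripts they pair with, in T cells of C57BL/6 mice. In syngeneic culture the T cells met dendritic cells of their own strain for 24 h, and in allogeneic culture dendritic cells of BALB/c mice for 24 h, at 20 T cells per dendritic cell in both. In the third culture, named anti-CD3/CD28 here, antibodies against CD3e and CD28 at 0.1 µg/ml stimulated the T cells for 24 h, with no dendritic cells named. T cells were purified on magnetic columns after incubation with CD11c beads, crosslinked with ultraviolet light (400 mJ/cm2 as the first dose) and lysed, and AGO was immunoprecipitated. Each of the 3 cultures has 3 arrays, numbered 1 to 3 as biological replicates with no animal or culture named, so p-values measure the spread between these arrays. With so few arrays, their number sets how precise each value can be. No arrays of input RNA were used, so a signal reflects both how much transcript a cell holds and how much of it is bound to AGO. In such bulk samples fewer cells of a type and less RNA per cell cannot be told apart.

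A ribosome joins a large subunit, which forms peptide bonds, to a small subunit, which reads the messenger RNA, and each subunit needs a copy of each of its proteins. Messenger RNAs of ribosomal proteins are among the most abundant in growing cells. They start with a C followed by a run of pyrimidines, the terminal oligopyrimidine (TOP) motif, through which mTOR signalling and the RNA-binding protein Larp1 regulate their translation. T cells that leave rest raise ribosome production as they prepare to divide.

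The start of a TOP transcript can be read in the genome sequence. RefSeq gene starts on GRCm38.p6 were at hand for 37 of the 42 genes, with 43 starts in all, and for each start 250 bases before and 50 bases after it. A C at the annotated start followed by 4 or more C or T was present at 8 of the 43 starts (18.6%), and at 823 of 32851 starts of all genes (2.51%). The 8 starts are shown because they are the members in which the annotated start itself carries the motif. Each line gives 15 bases before and 15 bases from the start on, on the strand of the gene, and capitals mark the pyrimidine run from the start.
Rpl14 (chr9:120571502-120571531, plus strand): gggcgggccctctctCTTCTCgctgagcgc
Rpl35 (chr2:39005117-39005146, minus strand): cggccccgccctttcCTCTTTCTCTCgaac
Rpl38 (chr11:114668565-114668594, plus strand): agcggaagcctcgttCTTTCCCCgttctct
Rplp2 (chr7:141447636-141447665, plus strand): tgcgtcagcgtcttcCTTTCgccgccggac
Rps6 (chr4:86857353-86857382, minus strand): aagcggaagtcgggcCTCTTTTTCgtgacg
Rps10 (chr17:27635230-27635259, minus strand): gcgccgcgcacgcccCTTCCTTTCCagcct
Rps18 (chr17:33955651-33955680, minus strand): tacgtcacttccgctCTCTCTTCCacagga
Rps27 (chr3:90213634-90213663, minus strand): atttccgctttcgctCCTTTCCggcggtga

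A pair of starts without the full motif is shown for contrast, since both genes return below among the larger differences. At the start of Rps28 the run was 3 letters long, and at that of Rplp0 it was 0.
Rps28 (chr17:33824548-33824577, minus strand): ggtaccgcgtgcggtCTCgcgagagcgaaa
Rplp0 (chr5:115559452-115559481, plus strand): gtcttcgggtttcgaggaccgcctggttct

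An annotated start can lie some bases away from the one a cell uses. A run of 8 or more C or T on the gene's strand, from 20 bases before to 30 bases after the start, was present at 48.8% of the member starts and at 19.0% of all starts. This run can overlap the TOP motif. CCGGAA on either strand of the whole window, the core of the site bound by ETS factors, was present at 55.8% of member starts and 14.9% of all starts. TATAAA on the gene's strand, the core of the TATA box, was present at 9.30% and 8.32%. These are matches of letters, and the motif rules were written after the sequences had been looked at.

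Signals of the ribosomal protein genes lay near the top of the arrays' range. Of the 42 genes, 34 had a mean between 11.07 and 13.59 (log2), while array medians over all genes ran from 4.85 to 6.24 and the highest signal on an array from 13.42 to 14.72. The other 8 (Rps25, Rps6, Rpl12, Rpl14, Rpl39, Rps27, Rps16 and Rpl37) had means between 3.41 and 9.28. On every one of the 9 arrays Rpl37 and Rps16 had signals no higher than the array median, and 39 of the 42 lay above it on all 9. A low signal of a probe set does not show how much of the protein's transcript the cells hold.

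**Figure D1:**
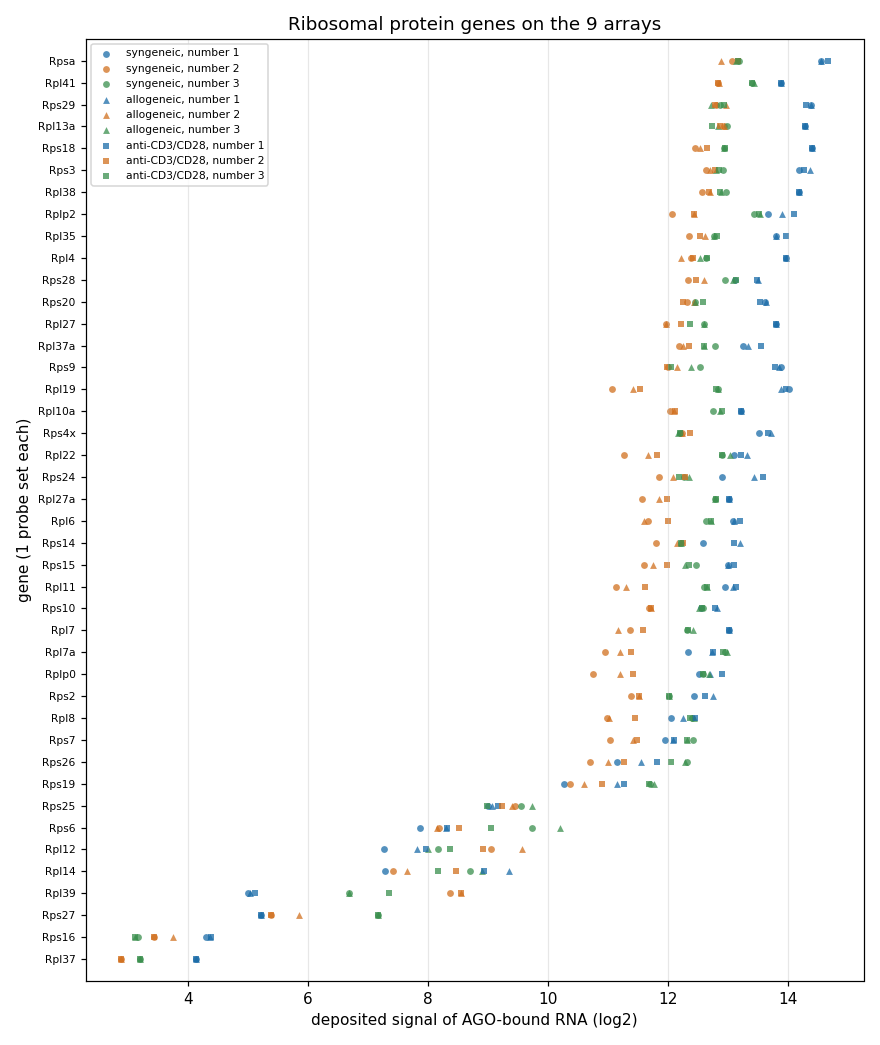
Deposited log2 signal (x axis) of the 42 ribosomal protein genes (y axis, in order of mean signal) on each of the 9 arrays, with colour for the replicate number and shape for the culture. For most genes the colours stand apart and the shapes of 1 colour lie together: number 1 was highest in 31 of the 42 genes and number 2 lowest in 33.

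Most of the spread of these genes lay between replicate numbers and little between cultures. The number accounted for a median of 97.1% of a member's variance over the 9 arrays and the culture for 1.16%, against 92.7% and 2.08% over all genes. Number 1 was highest, number 3 between and number 2 lowest in 27 of the 42 genes, and the mean of number 1 exceeded that of number 2 in 37, by a median of 1.24 (log2) over all 42. The median SD within a culture was 0.775 for members and 0.764 for all genes. The labels do not say what the numbers stand for, or whether arrays of 1 number were normalized together. In the 9 pairs of arrays with the same number, 17.9% to 49.0% of all genes had exactly equal deposited values, and 0% in the 27 pairs of different numbers. The part of such processing in the spread between numbers was not tested. The genes that departed from this were among the dimmer ones. In Rpl14 the number accounted for 23.4% and the culture for 28.9% of the variance, and in Rps25 for 37.0% and 22.6%. Differences between cultures are therefore given within each number as well as between group means, and p-values from limma are given with the number as a block beside those without it. Both fits give the same differences.

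In allogeneic against syngeneic culture, no ribosomal protein gene passed limma's test at an adjusted p of 0.05, with or without the replicate block. Nor did any of the 18193 genes (0%), so the members' count does not set them apart. At an unadjusted p under 0.05 limma gave 0 members without the block (0.148% of all genes), and with it 2 (4.53% of all genes), Rps28 and Rplp2. Both stood higher in allogeneic culture, as did 2.33% of all genes at that p, with 2.21% lower. The arrays of the cultures overlapped for all 42 genes, while 0.192% of all genes had groups that did not overlap with allogeneic culture higher and 0.451% with it lower. The median member difference was 0.08 on the log2 scale, or 1.06-fold, and that of all genes 0.03. Within numbers 1, 2 and 3 the member medians were 0.06, 0.15 and 0.00, and the median of all genes was 0.00 in each. With each array centred on its median the member median was 0.05, against −0.01 over all genes. The group mean was higher in allogeneic culture for 33 of the 42 genes (56% of all genes). It was higher in all 3 numbers for 10 of them (23.8%, against 7.29% of all genes) and lower in all 3 for 1, Rpl4 (7.96% of all genes).

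The 3 numbers did not contribute equally to this. Within number 1 the signal was higher in 26 members, lower in 4 and exactly equal in 12. Number 2 gave 32 higher, 6 lower and 4 equal, and number 3 gave 17 higher, 15 lower and 10 equal. Exactly equal signals between arrays of 1 number were common over all genes too (32.1%, 17.9% and 26.5% in the 3 numbers), so an equal pair does not show that the RNA was at the same level. In numbers 1 and 2 alone, 21 members (50%) were higher in both, against 15.8% of all genes. These are the numbers in which more members were higher, so this share only describes them. Leaving out 1 array gives cultures with unequal sets of numbers. Without the block the median difference then moved with single arrays of numbers 1 and 2. It was −0.26 without the syngeneic array of number 2 and −0.19 without the allogeneic array of number 1, and it was 0.40 without the syngeneic array of number 1 or the allogeneic array of number 2. It was 0.14 without the syngeneic array of number 3. With the block it stayed between 0.05 and 0.13 whichever array was left out.

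The members named for this comparison are the largest differences that had the same sign in all 3 numbers. Rps28, a small subunit protein near the exit of the messenger RNA channel, had signals of 13.11, 12.33 and 12.95 in syngeneic culture in numbers 1, 2 and 3. They were 13.49, 12.60 and 13.08 in allogeneic culture and 13.48, 12.45 and 13.12 with anti-CD3/CD28. The syngeneic array was the lowest of its number each time, while the cultures overlapped across numbers. The allogeneic difference was 0.26 ± 0.32 (SE), and its SE with the block was 0.07, with an unadjusted p of 0.00969 and an adjusted p of 0.709 in limma. With 1 array or 1 number left out, in either fit, the difference ran from 0.029 to 0.49.

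Rps19 is the small subunit gene most often mutated in Diamond-Blackfan anaemia, an inherited failure of red cell production. Its signals were 10.26, 10.37 and 11.69 in syngeneic culture, 11.14, 10.60 and 11.77 in allogeneic culture and 11.25, 10.89 and 11.67 with anti-CD3/CD28. The syngeneic arrays of numbers 1 and 2 were the low ones, and in number 3 the cultures stood within 0.10 of one another. The allogeneic difference was 0.39 ± 0.46 (SE), and from 0.093 to 0.85 with 1 array or 1 number left out. Rps24, another gene of that anaemia, stood at 12.90, 11.84 and 12.26 in syngeneic and at 13.43, 12.07 and 12.35 in allogeneic culture, a difference of 0.28 ± 0.43 (SE).

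Rpl14, a large subunit protein, had the largest difference of all members, 0.84 ± 0.64 (SE), and number 1 carried it. Its signals were 7.28, 7.41 and 8.70 in syngeneic culture and 9.34, 7.65 and 8.90 in allogeneic culture, so that the difference was 2.06 within number 1 and 0.24 and 0.20 within the others. With 1 array or 1 number left out it ran from 0.22 to 1.33. With anti-CD3/CD28 they were 8.93, 8.47 and 8.17, which is below the syngeneic array in number 3. Rpl4, whose protein lines the tunnel through which the new peptide leaves, was the member lower in all 3 numbers, at 13.96, 12.37 and 12.63 in syngeneic and 13.96, 12.22 and 12.52 in allogeneic culture. Its difference was −0.09 ± 0.52 (SE).

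**Figure D2:**
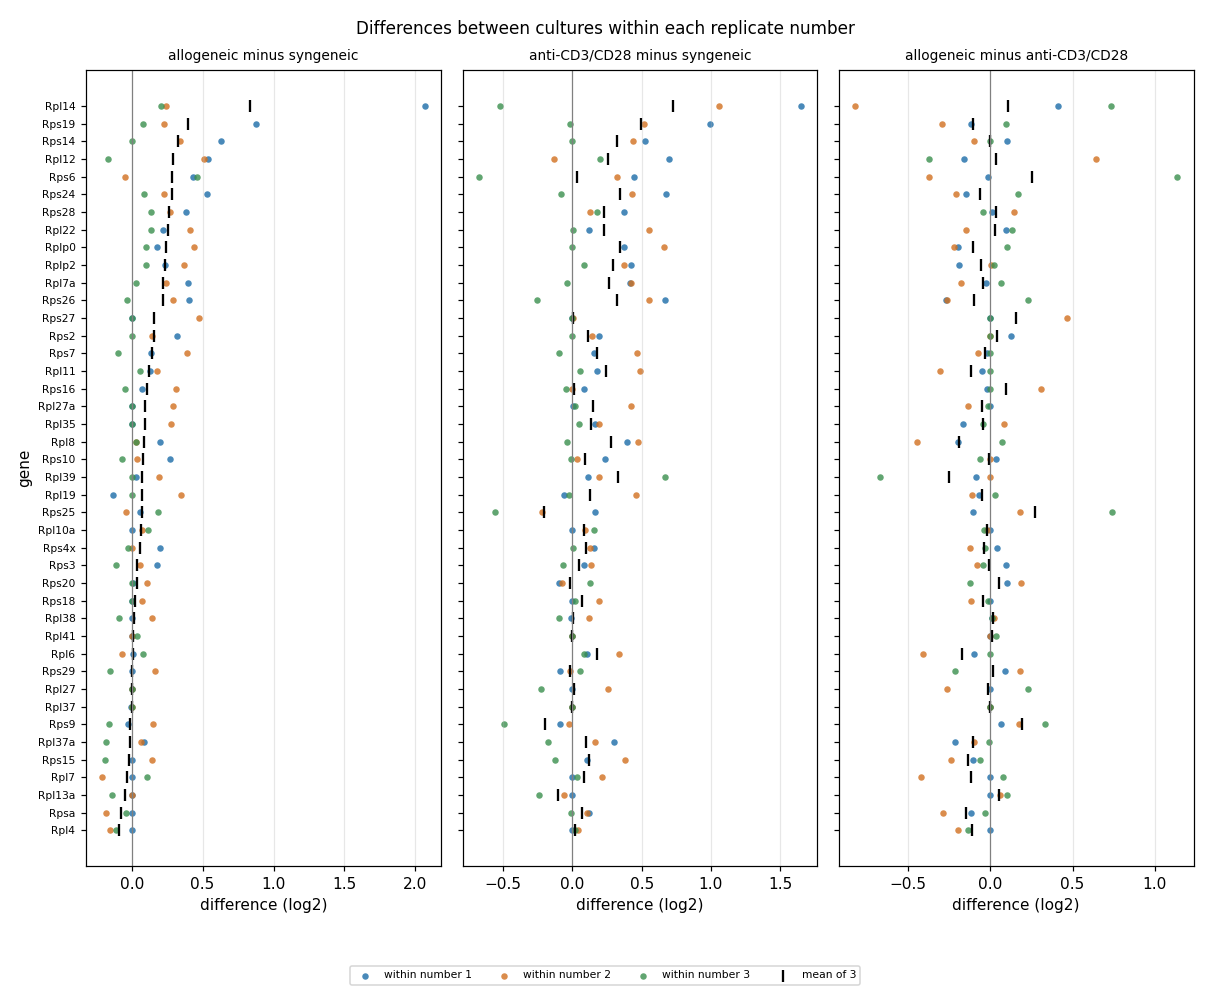
Log2 difference between cultures (x axis) for each of the 42 genes (y axis, in order of the allogeneic minus syngeneic mean), within replicate numbers 1, 2 and 3 (points) and as their mean (black bar). Against syngeneic culture most points of numbers 1 and 2 lie at or right of 0 and those of number 3 on both sides. The scale of the x axis differs between panels.

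Anti-CD3/CD28 against syngeneic culture gave a similar set of small differences, and again 0 members and 0 of the 18193 genes (0%) passed limma's test with or without the block. At an unadjusted p under 0.05 there were 0 members without the block (0.857% of all genes). With it there were 4 (6.79% of all genes), Rplp2, Rps28, Rplp0 and Rpl11, all of them higher with anti-CD3/CD28 (2.23% of all genes were higher and 4.56% lower at that p). The cultures overlapped for all 42 genes, against 0.412% of all genes without overlap and higher and 1.52% without overlap and lower. The median member difference was 0.10, or 1.07-fold, against 0.00 over all genes, and within numbers 1, 2 and 3 it was 0.12, 0.19 and 0.00. With each array centred on its median it was 0.22, against 0.11 over all genes. The mean was higher with anti-CD3/CD28 for 35 of the 42 genes (48.5% of all genes), and higher in all 3 numbers for 9 (21.4%, against 7.8% of all genes). Rps9 was lower in all 3, as were 9.15% of all genes. In numbers 1 and 2 together 25 members (59.5%) were higher in both, against 17.2% of all genes. Here too these are the numbers with the higher member medians, so the share only describes them. Without the block the median was −0.23 without the syngeneic array of number 2 and −0.16 without the anti-CD3/CD28 array of number 1. It was 0.41 without the syngeneic array of number 1 and 0.39 without the anti-CD3/CD28 array of number 2, and 0.20 and 0.16 without the number 3 arrays of these cultures. With the block it ran from 0.08 to 0.18. This comparison and the allogeneic one share their syngeneic arrays, so the likeness of their values is no independent result.

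The stalk of the large subunit, which recruits the elongation factors, is built from Rplp0, Rplp1 and Rplp2 and joined at its base by Rpl12. Rplp1 is not among the members. Rplp2 stood at 13.66, 12.06 and 13.42 in syngeneic culture, 13.90, 12.43 and 13.52 in allogeneic culture and 14.09, 12.43 and 13.50 with anti-CD3/CD28. Its difference with anti-CD3/CD28 was 0.29 ± 0.49 (SE), and with the block the SE was 0.08, the unadjusted p 0.0127 and the adjusted p 0.694 in limma. Within each number the syngeneic array was the lowest.

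Rplp0 was likewise lowest in syngeneic culture in numbers 1 and 2, at 12.52 and 10.75 in syngeneic culture, 12.70 and 11.19 in allogeneic culture and 12.89 and 11.41 with anti-CD3/CD28. In number 3 it stood at 12.58, 12.68 and 12.58. Its mean difference with anti-CD3/CD28 was 0.34 ± 0.55 (SE). Rpl12, one of the dim members, differed by 0.25 ± 0.67 (SE) with anti-CD3/CD28 and by 0.29 ± 0.67 (SE) in allogeneic culture, with signs that were mixed over the numbers in both.

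Rpl11 binds Mdm2, the inhibitor of p53, when ribosome assembly is disturbed. It stood at 12.95, 11.12 and 12.59 in syngeneic culture and at 13.13, 11.60 and 12.65 with anti-CD3/CD28, higher in every number, with a difference of 0.24 ± 0.55 (SE). Rpl22 is a large subunit protein required for the development of alpha-beta T cells. Its signals were 13.09, 11.26 and 12.89 in syngeneic culture, 13.31, 11.67 and 13.03 in allogeneic culture and 13.22, 11.81 and 12.90 with anti-CD3/CD28. Its difference was 0.23 ± 0.53 (SE) with anti-CD3/CD28 and 0.25 ± 0.53 (SE) in allogeneic culture, and the syngeneic array was again the lowest of each number.

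Rpl39, a small protein of the exit tunnel, had the largest difference among members that were higher in all 3 numbers, 0.33 ± 1.11 (SE). Number 3 led it, with 6.68 in syngeneic culture and 7.35 with anti-CD3/CD28, while numbers 1 and 2 stood at 5.01 and 8.36 in syngeneic culture and 5.12 and 8.55 with anti-CD3/CD28. In number 1 these signals lay close to the array medians, 4.86 in syngeneic culture and 4.85 with anti-CD3/CD28. Rps9, a protein of the small subunit's body, was the member lower in all 3 numbers, at 13.87, 12.00 and 12.54 in syngeneic culture and 13.78, 11.97 and 12.04 with anti-CD3/CD28. Its difference was −0.20 ± 0.58 (SE) on the brightest probe set and 0.21 on the mean of its 3 probe sets, so its sign depends on the probe set.

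A list of genes mutated in Diamond-Blackfan anaemia, which does not hold all that are known, had 6 measured members, Rps19, Rps24, Rps26, Rps10, Rps7 and Rpl11. The means of these 6 were higher than in syngeneic culture by medians of 0.18 (allogeneic) and 0.28 (anti-CD3/CD28), and 0 of them passed the test. Within numbers 1, 2 and 3 the medians were 0.34, 0.23 and 0.01 in allogeneic culture. With anti-CD3/CD28 they were 0.45, 0.47 and −0.05. Of the 6 genes, 3 (allogeneic) and 1 (anti-CD3/CD28) were higher in all 3 numbers. Other members linked to that anaemia are Rps28, given above, and Rps27, Rps29, Rpl27 and Rpl35. In allogeneic culture and with anti-CD3/CD28, Rps27 differed by 0.16 and 0.00, Rps29 by 0.00 and −0.02, Rpl27 by 0.00 and 0.01, and Rpl35 by 0.09 and 0.14. Rps26, a small subunit protein at the messenger RNA exit, had differences of 0.67, 0.55 and −0.26 with anti-CD3/CD28 within numbers 1, 2 and 3.

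A list of genes with roles outside the ribosome had 5 measured members, Rpl11 and Rpl22 described above, Rps6, Rps3 and Rpl13a. The means of 4 of the 5 were higher than in syngeneic culture in either comparison, with medians of 0.12 (allogeneic) and 0.05 (anti-CD3/CD28), and 0 passed the test. Rps6, the small subunit substrate of the S6 kinases downstream of mTOR, had a dim and variable probe set, at 7.86, 8.19 and 9.73 in syngeneic culture, 8.30, 8.14 and 10.19 in allogeneic culture and 8.31, 8.51 and 9.05 with anti-CD3/CD28. Rps3, which is also a DNA repair factor, differed by 0.04 ± 0.51 (SE) in allogeneic culture and by 0.05 ± 0.51 (SE) with anti-CD3/CD28. Rpl13a, a silencer of inflammatory transcripts when released from the ribosome, differed by −0.05 ± 0.48 (SE) and −0.10 ± 0.48 (SE). Outside that list, Rpl38, known for its part in the translation of homeobox transcripts, differed by 0.02 ± 0.49 (SE) and 0.00 ± 0.49 (SE). The signs of Rps3, Rpl13a, Rpl38 and Rps6 turned under another scaling or probe set choice.

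Allogeneic and anti-CD3/CD28 cultures were also set against each other. No member and 0 of the 18193 genes (0%) passed limma's test in either fit. At an unadjusted p under 0.05 there were 0 members without the block (0.132% of all genes) and 1 with it (1.13% of all genes), Rpsa, lower in allogeneic culture (0.335% of all genes were lower and 0.792% higher at that p). The cultures overlapped for all 42 genes, against 0.269% of all genes without overlap and higher and 0.055% without overlap and lower. The median member difference, allogeneic minus anti-CD3/CD28, was −0.02, or 0.983-fold, against 0.04 over all genes, and within numbers 1, 2 and 3 it was 0.00, −0.10 and 0.00. With each array centred on its median it was −0.17, against −0.11 over all genes. The mean was higher in allogeneic culture for 16 of the 42 genes (60.1% of all genes). It was lower in all 3 numbers for 7 (16.7%, against 2.58% of all genes) and higher in all 3 for 2, Rps9 and Rpl38 (4.39% of all genes). In numbers 1 and 2 together 5 members (11.9%) were higher in both, against 9.69% of all genes. Without the block the median turned to 0.29 without the anti-CD3/CD28 array of number 1 and to 0.27 without the allogeneic array of number 2. It was −0.35 without the allogeneic array of number 1 and −0.28 and −0.06 without the anti-CD3/CD28 arrays of numbers 2 and 3. With the block it ran from −0.07 to 0.00.

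Rpsa, the small subunit protein also known as a laminin receptor, was the member with the most negative difference of those 7, −0.15 ± 0.51 (SE). It stood at 14.54, 12.87 and 13.13 in allogeneic culture and 14.66, 13.16 and 13.16 with anti-CD3/CD28, and at 14.54, 13.05 and 13.17 in syngeneic culture. With the block the SE was 0.06, the unadjusted p 0.0472 and the adjusted p 0.928 in limma. The other members named were Rps15 (−0.14 ± 0.41, SE), which reaches into the decoding centre, Rpl11 (−0.12 ± 0.55, SE) and Rpl4 (−0.11 ± 0.52, SE).

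Medians were also taken by subunit and by transcript start. Large subunit genes had median differences of 0.07, 0.14 and −0.05 in the order allogeneic minus syngeneic, anti-CD3/CD28 minus syngeneic and allogeneic minus anti-CD3/CD28, and small subunit genes 0.10, 0.08 and 0.00. The 8 genes with the TOP motif at the annotated start, Rpl14 and Rplp2 among them, had medians of 0.12, 0.08 and 0.00, and the 29 with a start in the table and no such motif, Rps28 and Rplp0 among them, 0.07, 0.12 and −0.04. The difference between these groups was not tested. Dimmer members differed more: the median size of the difference was 0.14 in the dimmer 21 genes and 0.06 in the brighter 21 (allogeneic minus syngeneic), 0.20 and 0.10 (anti-CD3/CD28 minus syngeneic), and 0.11 and 0.04 (allogeneic minus anti-CD3/CD28).

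**Figure D3:**
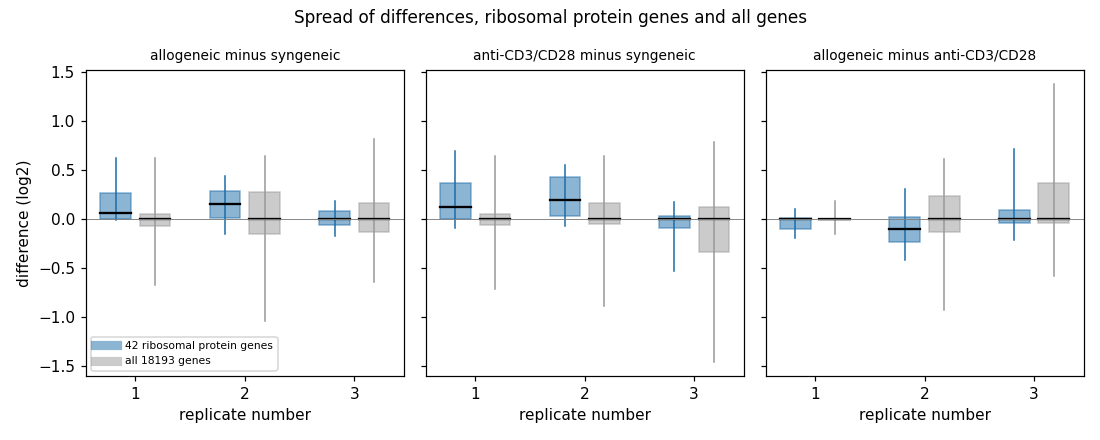
Log2 differences between cultures (y axis) within each replicate number (x axis), for the 42 ribosomal protein genes (blue) and all 18193 genes (grey): black line, median; box, middle 50% of genes; whisker, 5th to 95th percentile. The blue medians of numbers 1 and 2 lie above 0 against syngeneic culture, at 0.06 and 0.15 and at 0.12 and 0.19, and that of number 3 lies at 0.00.

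Other probe sets of the same genes shared the sign of the brightest in part. Of the 42 genes, 22 have more than 1 single-gene probe set, with 52 probe sets beside the brightest. The signs were equal in 36, 34 and 31 of 52 in the 3 comparisons, in the order above. Where the brightest set differed by exactly 0, the others counted as unequal (Rpl27 in the allogeneic and Rpl41 in the anti-CD3/CD28 comparison with syngeneic culture). All 3 probe sets of Rps28 were higher in allogeneic culture, by 0.20 to 0.26, and with anti-CD3/CD28, by 0.16 to 0.22. All 6 of Rps24 were higher too, by 0.08 to 0.28 and by 0.08 to 0.53. Its brightest set differed with anti-CD3/CD28 by 0.67, 0.43 and −0.08 within numbers 1, 2 and 3, and so was lower in number 3. In Rps6 the probe sets disagreed, at 0.28 and −0.73 in allogeneic culture. The 77 probe sets that name a ribosomal protein gene outside the 42 beside other symbols had medians of 0.10, 0.08 and 0.01, with 63, 57 and 41 of 77 higher in the first culture named. Over all 45037 probe sets that are not controls, the medians were 0.015, 0.009 and 0.011, with 24017, 23573 and 23688 higher. The 77 sets thus lay near all probe sets in allogeneic minus anti-CD3/CD28. Sets that name several genes can also take up signal from near-identical gene copies. Members share this limit in part. The brightest set has a name ending in _x_at for 13 of the 42 members and in _s_at for 1. The platform uses these endings for sets with probes that can match other transcripts.

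Genes that build ribosomes had larger median differences than the ribosomal proteins themselves, although 0 of the 25 measured passed the test in any comparison, and the gap between the lists was not tested. Their means were higher than in syngeneic culture for 22 of 25 in allogeneic culture, with a median of 0.36, and for 25 of 25 with anti-CD3/CD28, with a median of 0.55. Nop58, a core protein of the particles that methylate ribosomal RNA, was higher with anti-CD3/CD28 by 1.19, 0.71 and 1.41 within numbers 1, 2 and 3, a mean of 1.10 ± 0.40 (SE). Its partner Nop56 was higher by 0.52, 0.51 and 0.44, and Gar1, of the particles that make pseudouridine, by 1.16, 1.00 and 0.28. In number 3 the biogenesis median was 0.66 in allogeneic culture and 0.42 with anti-CD3/CD28, where the ribosomal proteins stood at 0.00. In number 2 of the allogeneic comparison it was −0.02, where they stood at 0.15.

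A list of initiation and mTOR genes, which also holds Myc, had 12 measured members. Of these, 11 and 10 had higher means than in syngeneic culture (allogeneic and anti-CD3/CD28), with medians of 0.15 and 0.17. The lower means were those of Mtor in allogeneic culture, and of Eif4ebp1 and Rheb with anti-CD3/CD28. Eif4a1, the helicase that unwinds the start of messenger RNAs, was higher with anti-CD3/CD28 by 0.77, 1.16 and 0.94 in the 3 numbers, and Myc, which drives ribosome production, by 0.82, 0.85 and 1.03. Other genes with TOP transcripts, mostly translation factors but also Tpt1, Npm1, Nap1l1 and Hnrnpa1, had 15 measured members, with medians of 0.06 and 0.01. Among them Pabpc1, the poly(A)-binding protein, was higher by 0.36, 0.46 and 0.10 with anti-CD3/CD28. Tpt1 was lower by 0.28, 0.17 and 0.26 in the same comparison, its difference being −0.24 ± 0.47 (SE). The 6 measured paralogues of ribosomal proteins had medians of 0.16 and 0.08, with 5 and 3 means higher than in syngeneic culture. Rpl22l1, the counterpart of Rpl22, differed by 1.46, 0.10 and 0.30 in allogeneic culture and by 1.29, 0.14 and −0.57 with anti-CD3/CD28, and Rps27l by 0.59, 0.19 and −0.01 and by 0.59, −0.46 and −1.35. Among ribosomal proteins named under other symbols, Fau differed by −0.16 ± 0.50 (SE) and Rps3a1 by 0.14 ± 0.55 (SE) with anti-CD3/CD28. None of the genes of these lists passed limma's adjusted test.

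**Figure D4:**
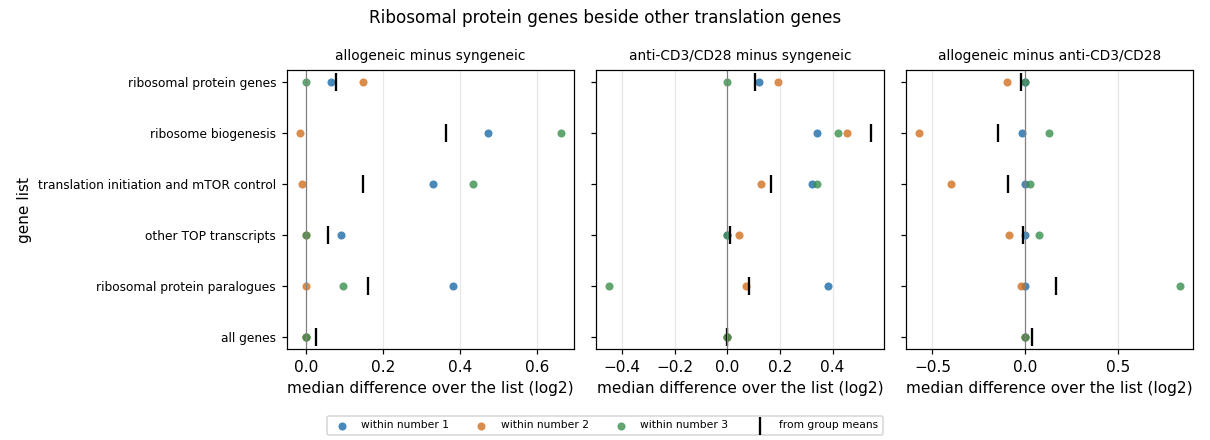
Median log2 difference between cultures (x axis, with a scale of its own in each panel) over each gene list (y axis), within replicate numbers 1, 2 and 3 (points) and from the group means (black bar). The bar of the 42 ribosomal protein genes lies at 0.08, 0.10 and −0.02 from left to right, and that of the 25 ribosome biogenesis genes at 0.36, 0.55 and −0.15.

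No marker of another cell type passed limma's adjusted test either, but the summed signals of some marker lists differed between cultures. Summed over 9 macrophage and monocyte markers, the log2 signal was 60.6 to 72.4 in syngeneic arrays, 47.4 to 55.8 in allogeneic arrays and 39.7 to 54.6 with anti-CD3/CD28. All 9 means were lower than in syngeneic culture in both other cultures, and C1qa lay under the array median on all 9 arrays. The 10 dendritic cell markers summed to 85.4 to 102, 83.3 to 102 and 81.8 to 84.9, all 10 means lower than in syngeneic culture in both. Within numbers 1, 2 and 3 their median differences were −0.03, −1.04 and 0.01 in allogeneic culture. With anti-CD3/CD28 they were −0.21, −0.89 and −0.91. The 8 T cell markers, 7 of them above the array median on all 9 arrays, summed to 74.3 to 83.7, 75.1 to 84.2 and 80.1 to 86.0. The 6 B cell markers summed to 40.03 to 48.7, 37.6 to 47.2 and 36.5 to 51.9, and the 4 granulocyte markers to 19.6 to 29.5, 19.2 to 30.5 and 16.7 to 22.4, with Elane under the median on all 9 arrays. Both erythroid markers, Hba-a1 and Alas2, lay under the median on all 9. The 4 fibroblast markers summed to 15.7 to 41.7, 16.01 to 33.9 and 16.2 to 32.5, all 4 means lower than in syngeneic culture in both. That fall lay in number 2. Within numbers 1, 2 and 3 the median differences were 0.00, −1.96 and 0.06 in allogeneic culture. With anti-CD3/CD28 they were 0.00, −2.42 and 0.09. The ranges of the T cell, B cell, granulocyte, erythroid and fibroblast sums overlapped between cultures. Those of the dendritic cell markers overlapped between allogeneic culture and each of the others. Those of the macrophage and monocyte markers overlapped only between allogeneic culture and anti-CD3/CD28. The part of other cells in the differences of the ribosomal protein genes was not tested.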

How the data were processed

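AGO-bound RNA of 9 T cell samples was hybridised to 1 Affymetrix mouse expression array each. The values are log2 signals per probe set as deposited by the authors, made with RMA per the submitters' processing notes (no program or version is named there). They were analysed unchanged. From 45101 probe sets, 64 control sets, 932 sets naming several genes and 9160 naming none were left out. The other 34945 gave 18193 genes, each represented by its brightest set.

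The tests of differences came from limma 3.58.1 (R 4.3.3), fitted to all 9 arrays with 1 mean per culture and an intensity trend. P-values were adjusted by Benjamini-Hochberg over the 18193 genes, and an adjusted p under 0.05 was called. The median SE of a member's difference was 0.493, or 0.0944 with the replicate number as a block. The numbers, taken from the labels' titles, pair the arrays by their values: deviations from the culture means correlated at 0.811 to 0.921 in all 9 pairs of equal number. Named members have the same sign in all 3 numbers (the 4 largest each way) or belong to a fixed list (Rpl22, Rpl11, Rpl13a, Rplp0, Rplp2, Rps6, Rps19, Rps3, Rps26, Rpl38 and Rpl39, with Rpl5, Rplp1 and Rps27a, which are not members). Rpl12, Rps7 and Rps10 are named through gene groups, and dim or variable members were named after their values were seen. The members and lists were chosen with earlier results of these data known. Alternatives were the block, median-centred arrays, quantile normalization, a filter at the 40th percentile of mean signal, no intensity trend, the mean of all probe sets and each array left out. Those added after seeing the data were bright members only, the block with each array left out, and a fit by probe set.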

Additional observations from a re-analysis of the deposited data

How the results depend on the processing

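No setting made any of the 42 ribosomal protein genes pass the threshold in limma. With the replicate block the counts of called genes were still 0 and the medians 0.08, 0.10 and −0.02, since pairing changes only the errors. With median-centred arrays, 1 gene of 18193 was called in allogeneic against syngeneic culture and 1 in anti-CD3/CD28 against syngeneic culture. The member medians then became 0.22 in anti-CD3/CD28 minus syngeneic (all genes 0.11) and −0.17 in allogeneic minus anti-CD3/CD28 (all genes −0.11). Small differences turned sign under some settings. With centred arrays these were allogeneic minus syngeneic for Rpl38 (−0.013) and anti-CD3/CD28 minus syngeneic for Rpl13a (0.012) and allogeneic minus anti-CD3/CD28 for Rpl13a (−0.091), Rpl14 (−0.037), Rpl22 (−0.12), Rpl38 (−0.13), Rps28 (−0.11). With the mean of all probe sets these were allogeneic minus syngeneic for Rpl13a (0.049), Rps15 (0.036), Rps6 (−0.23), Rps9 (0.20) and anti-CD3/CD28 minus syngeneic for Rpl13a (0.021), Rps3 (−0.011), Rps6 (−0.37), Rps9 (0.21) and allogeneic minus anti-CD3/CD28 for Rps3 (0.12), Rps9 (−0.018). With quantile normalization these were allogeneic minus syngeneic for Rps15 (0.018) and anti-CD3/CD28 minus syngeneic for Rpl38 (−0.037) and allogeneic minus anti-CD3/CD28 for Rpl14 (−0.019). The cause was not tested. Leaving out 1 array or 1 number, with or without the block, gave these ranges for the followed members that changed sign and for the member medians. In allogeneic minus syngeneic they were Rpl11 −0.43 to 0.64, Rpl13a −0.51 to 0.39, Rpl22 −0.32 to 0.75, Rpl38 −0.44 to 0.49, Rpl39 −0.82 to 0.94, Rpl4 −0.62 to 0.40, Rplp0 −0.36 to 0.74, Rplp2 −0.26 to 0.66, Rps15 −0.39 to 0.30, Rps24 −0.13 to 0.56, Rps26 −0.12 to 0.68, Rps3 −0.50 to 0.51, Rps6 −0.37 to 0.85, Rps9 −0.54 to 0.53, Rpsa −0.59 to 0.40, the member median −0.26 to 0.40. In anti-CD3/CD28 minus syngeneic they were Rpl11 −0.31 to 0.67, Rpl13a −0.59 to 0.34, Rpl22 −0.35 to 0.64, Rpl38 −0.46 to 0.48, Rpl39 −0.51 to 1.27, Rpl4 −0.46 to 0.51, Rplp0 −0.25 to 0.78, Rplp2 −0.20 to 0.75, Rps15 −0.26 to 0.44, Rps24 −0.11 to 0.62, Rps26 −0.021 to 0.78, Rps28 −0.010 to 0.51, Rps3 −0.44 to 0.52, Rps6 −0.33 to 0.60, Rps9 −0.79 to 0.33, Rpsa −0.43 to 0.55, the member median −0.23 to 0.41. In allogeneic minus anti-CD3/CD28 they were Rpl11 −0.55 to 0.40, Rpl13a −0.41 to 0.55, Rpl14 −0.36 to 0.60, Rpl22 −0.39 to 0.53, Rpl38 −0.45 to 0.48, Rpl39 −1.19 to 0.61, Rpl4 −0.64 to 0.37, Rplp0 −0.54 to 0.39, Rplp2 −0.51 to 0.37, Rps15 −0.46 to 0.18, Rps19 −0.41 to 0.18, Rps24 −0.47 to 0.39, Rps26 −0.43 to 0.21, Rps28 −0.24 to 0.27, Rps3 −0.55 to 0.48, Rps6 −0.40 to 0.62, Rps9 −0.34 to 0.78, Rpsa −0.66 to 0.36, the member median −0.35 to 0.29. Among the members followed, the sign was kept in both fits, in allogeneic minus syngeneic, by Rpl14 (0.22 to 1.33), Rps19 (0.093 to 0.85) and Rps28 (0.029 to 0.49). In anti-CD3/CD28 minus syngeneic it was kept by Rpl14 (0.19 to 1.36) and Rps19 (0.24 to 0.96). With the block and 1 array left out, fewer signs of the followed members turned. In allogeneic minus syngeneic these were Rpl13a, Rpl38, Rpl39, Rps15, Rps3 and Rps9. There Rpl22 ran from 0.13 to 0.34, Rplp0 from 0.11 to 0.36 and Rplp2 from 0.18 to 0.32. In anti-CD3/CD28 minus syngeneic they were Rpl38, Rpl4 and Rps6. In allogeneic minus anti-CD3/CD28 they were Rpl14, Rpl22, Rpl38, Rplp0, Rplp2, Rps19, Rps24, Rps26, Rps28, Rps3 and Rps6. The counts of called genes stayed at 0 under the dim-gene filter, quantile normalization, the prior without a trend, the mean of probe sets, bright members only and the fit by probe set. Signal near the array median limits Rpl37, Rps16 and Rps27, and Rpl39 in number 1. Exactly equal values limit what a difference of 0.00 shows.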
